A study of Mus musculus with 2 samples.

Results

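The 589 Pwp1 peaks on mouse chromosome 11 are the subject here, out of 5639 peaks in the whole list, or 10.4% of it. They are all lines of the list that lie on this chromosome, and the chromosome itself was chosen by its high peak density in the same list, with its peak widths also known. Density, width and spacing on chromosome 11 are therefore given as descriptions with no test, and there is no replicate to give them a replicate error. The 4 peaks that start below position 3,110,000 were treated as a subgroup. It was set by that position with the widths already known, and these 4 are the widest on the chromosome. For comparison the 2827 peaks of 13 other autosomes were used (2, 3, 7, 8, 9, 10, 12, 13, 15, 16, 17, 18 and 19). Of the remaining chromosomes, density was summarised only for 1 and 14, so the 13 do not stand for all other chromosomes. All positions are on the mm9 build, and chromatin was from 1 ChIP library.

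The cells were E14.1 mouse embryonic stem cells. They were cultured on gelatin with 15% fetal bovine serum and with LIF, a cytokine that keeps such cells undifferentiated, at 1000 units per ml. Sonicated chromatin was precipitated with an antibody against Pwp1. An input library without antibody came from the same kind of cells, and no file of it was analysed here. No gene was knocked out and no treatment was compared, and a list of positions holds no marker by which the cell type could be checked. The question set by the series is where Pwp1 binds.

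Pwp1 is a WD-repeat protein, a family whose members fold into a propeller-shaped platform for binding other proteins, and it is known from the nucleolus and from the production of ribosomes. In ChIP-seq, DNA fragments held by the antibody are sequenced, and a peak is a stretch where their reads pile up. The width of a peak thus depends on the length of the fragments, on the number of reads and on the settings of the peak caller. Mouse chromosome 11 is rich in genes and carries Stat3, the transcription factor through which LIF acts and which the series title names, as well as Trp53 and the Hoxb cluster. No gene was placed against a peak, since the gene table at hand is of another build, so whether any of these peaks lies at Stat3 was not analysed here, and no sequence of a peak is shown.

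Chromosome 11 carried 4.96 peaks per Mb of the span from its first to its last peak, which was 118.6 Mb long (exact Poisson 95% interval 4.57 to 5.38, counting error only). The 13 comparison chromosomes had lower densities, the lowest being 1.47 peaks per Mb (chromosome 3), the median 1.89 and the highest 2.33 (chromosome 19). Pooled, they held 1.88 peaks per Mb, so that density on chromosome 11 was 2.64-fold as high (2.41 to 2.89). Summed over all widths, peaks covered 963 bp per Mb on chromosome 11, against 234 to 371 bp per Mb on the 13. High density was not particular to chromosome 11. Outside the 13, chromosomes 1 and 14 held 4.13 and 3.97 peaks per Mb, covering 734 and 773 bp per Mb.

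The peaks ran along the whole of chromosome 11. In the 11 windows of 10 Mb that lay wholly inside the span, the lowest count was 29 peaks, from 10 to 20 Mb. The median was 48 peaks and the highest count was 64, from 80 to 90 Mb. On the comparison chromosomes the median of 136 such windows was 16.5 peaks and the highest count was 47, on chromosome 17. None of the 136 windows reached the median of chromosome 11, and 30 of them held at least as many peaks as its lowest window. The windows of chromosome 11 thus overlapped with those of the 13 only below their own median. On the other dense chromosomes, windows held 17 to 55 peaks (chromosome 1) and 13 to 71 peaks (chromosome 14).

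In bins of 1 Mb, 112 of 117 on chromosome 11 held a peak (95.7%), with a median of 5 peaks per bin. Over the 13 comparison chromosomes 1037 of 1491 bins did (69.6%), with a median of 1 peak, and by chromosome this share ran from 61.6% to 80.7%. The 5 bins without a peak started at 14, 15, 39, 41 and 111 Mb. The 5 fullest bins held 11 peaks each and started at 32, 49, 54, 78 and 84 Mb. A bin as full as this is not peculiar to chromosome 11, because the fullest bin of the comparison chromosomes held 12 peaks, on chromosome 2.

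**Figure D1:**
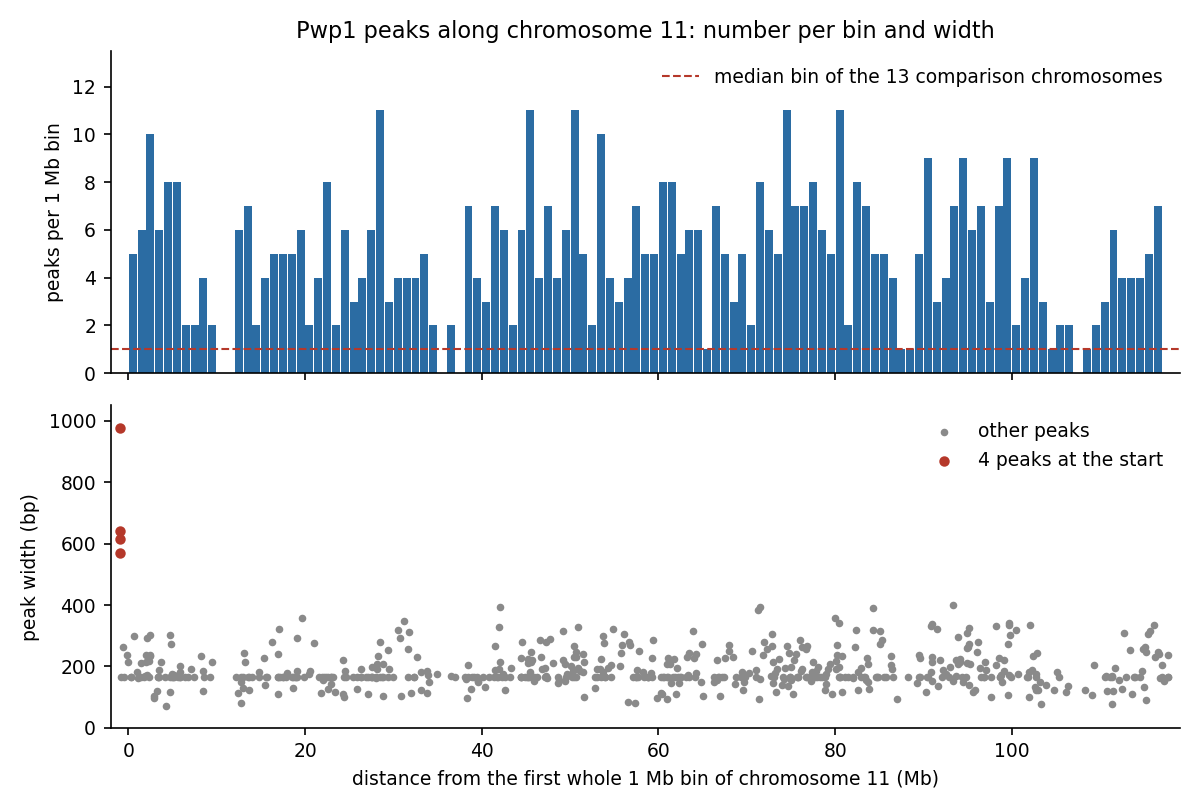
Upper panel, the number of Pwp1 peaks in each 1 Mb bin of chromosome 11, with a dashed line at the median bin of the 13 comparison chromosomes (1 peak). Lower panel, the width of each of the 589 peaks in bp against the same distance axis in Mb, with the 4 peaks at the start in red at 571 to 976 bp and every other peak at 399 bp or below.

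Cut into 5 equal parts from the first to the last peak, chromosome 11 held 112, 106, 130, 136 and 105 peaks. The fullest part held 1.30 times as many peaks as the emptiest (exact 95% interval 1.00 to 1.69). On the comparison chromosomes this ratio was at least 1.52 (chromosome 18), had a median of 2.48 and reached 5 (chromosome 16), so none of the 13 was as even by this ratio. These chromosomes hold fewer peaks, so that counting error alone spreads their parts more. The variance of counts in 1 Mb bins divided by their mean was 1.46 on chromosome 11. By that measure 1 of the 13 was more even, chromosome 13 at 1.42. Relative to the pooled comparison chromosomes, density was 2.62-, 2.66-, 2.93- and 3.34-fold in the first 4 parts. In the last part it was 1.90-fold, where the comparison chromosomes were themselves at their densest, with 2.33 peaks per Mb.

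Peaks of chromosome 11 were wider. The commonest width in the whole list, 167 bp, was shared by 188 of the 589 peaks, or 31.9%, close to the 29.2% of the comparison chromosomes. It was also the median on chromosome 11 and on each of the 13, so the median does not show how the widths differ. The lower and upper quartiles were 167 and 220 bp on chromosome 11 and 124 and 171 bp on the comparison chromosomes pooled. The mean width was 194 ± 72.2 bp (SD over 589 peaks) against 159 ± 39.1 bp (SD over 2827 peaks). By chromosome, the mean of the comparison chromosomes stayed between 154 and 162 bp.

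Wider than 167 bp were 273 of the 589 peaks, or 46.3% (exact Clopper-Pearson 95% interval 42.3 to 50.5), where the share over all listed peaks was 32.0%. On the 13 comparison chromosomes it ran from 22.5% to 30.9%. Wider than 250 bp were 89 peaks, or 15.1% (12.3 to 18.3), where the share over all listed peaks was 5.85%. On the comparison chromosomes 67 of 2827 peaks were that wide, or 2.37% (1.84 to 3.0), with chromosome 10 highest at 3.92%. Wider than 300 bp were 43 peaks on chromosome 11 and 17 on the 13 others together, and 33.1% of all peaks of the list past this limit lay on chromosome 11. A high share of wide peaks was shared with chromosomes 14 and 1, which are also dense, at 17.9% and 7.26% wider than 250 bp.

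The added peaks were not spread evenly over the widths. Peaks of 130 bp or narrower occurred at the same density on both sides, 0.539 per Mb on chromosome 11 and 0.540 on the comparison chromosomes, a ratio of 1.00 (exact 95% interval 0.763 to 1.29). Of the 13, 6 held fewer and 7 more of these narrow peaks per Mb than chromosome 11. Peaks over 130 bp and below 167 bp were 1.87-fold as dense (1.42 to 2.44), and those of exactly 167 bp 2.89-fold (2.45 to 3.39). From there the ratio was 2.59 (2.03 to 3.27) for widths above 167 and up to 200 bp, and 4.64 (3.64 to 5.87) up to 250 bp. It was 11.7 (7.65 to 17.8) up to 300 bp and 32.1 (17.9 to 60.0) beyond 300 bp, where the comparison chromosomes held 0.0113 peaks per Mb. Chromosomes 1 and 14, which are also dense, were alike, with 0.553 and 0.555 peaks of 130 bp or narrower per Mb. Wider than 167 bp they held 1.55 and 1.75 per Mb, against 2.30 on chromosome 11. Wider than 250 bp they held 0.300 and 0.713, against 0.750.

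Of the difference in density of 3.09 peaks per Mb, 58.3% came from peaks wider than 167 bp, 33.6% from those of 167 bp and 8.15% from narrower ones. The boundary at 130 bp was set with the widths in view. The equality below it is a balance of 2 classes, since the ratio was 1.43 (0.946 to 2.09) for peaks up to 110 bp and 0.790 (0.541 to 1.12) for those over 110 and up to 130 bp. Both intervals include 1. The shares, intervals and ratios treat peaks as independent, and how the peak caller set the widths is not given in the sources used here.

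**Figure D2:**
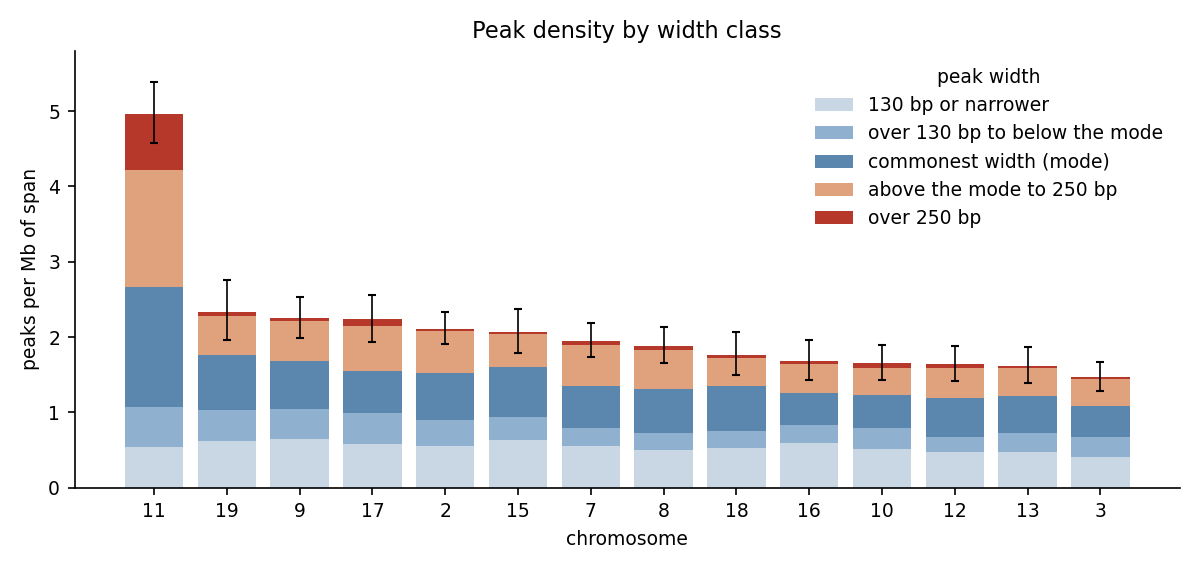
Peaks per Mb of span on chromosome 11 and on the 13 comparison chromosomes in order of density, each bar divided by peak width, the commonest width (mode) being 167 bp, with exact Poisson 95% intervals of the total. The lowest segment, peaks of 130 bp or narrower, is 0.539 per Mb on chromosome 11 and 0.414 to 0.646 on the others, while the top segment, over 250 bp, is 0.750 against 0.0263 to 0.0868.

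**Figure D3:**
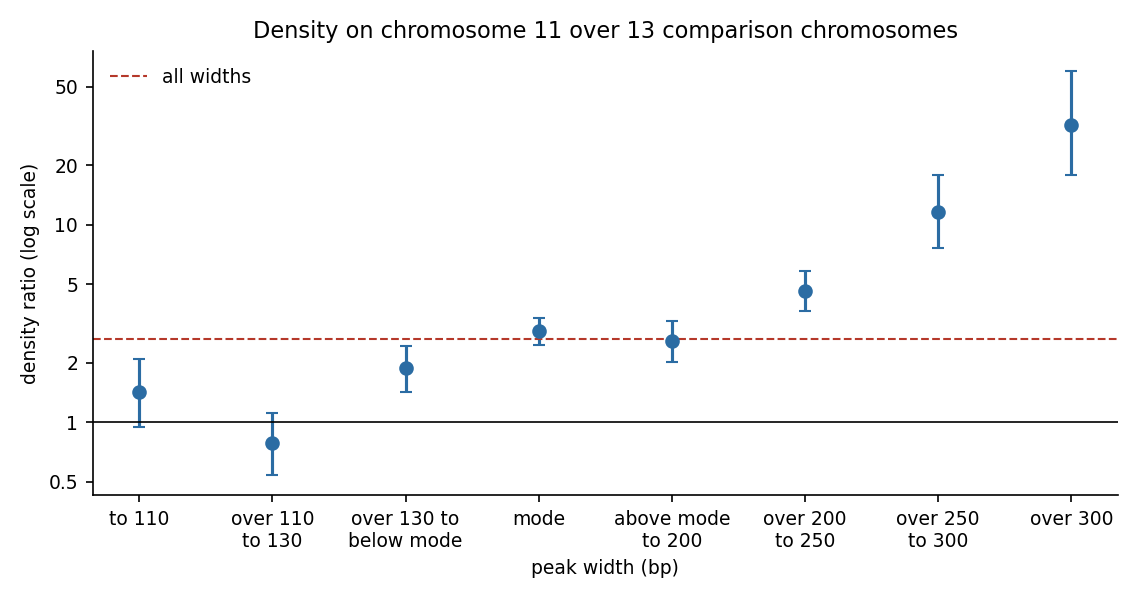
Density of peaks on chromosome 11 divided by that of the 13 comparison chromosomes pooled, on a log axis, for 8 classes of peak width (the mode is 167 bp), with exact 95% intervals. The dashed line is the ratio over all widths, 2.64, and the classes run from 0.790 for widths over 110 and up to 130 bp to 32.1 for widths over 300 bp.

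Widths were also compared between bins of equal fullness. On the comparison chromosomes, peaks in 1 Mb bins with 1 to 2, 3 to 5, 6 to 8 and 9 to 12 peaks were wider than 250 bp in 2.32%, 2.38%, 2.26% and 1.83% of cases. In bins of the same fullness on chromosome 11 the shares were 2.70%, 16.8%, 13.1% and 18%. The bins with 1 to 2 peaks hold only 37 peaks of chromosome 11, of which 1 was this wide (exact interval 0.0684% to 14.2%), so the first share is poorly known. The bin classes were set after the data had been seen, and peaks of 1 library are not replicates. For peaks wider than 167 bp the shares on chromosome 11 were 37.8%, 44.0%, 42.9% and 59.5%, against 23.2%, 28.2%, 28.6% and 30.3%.

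The wide peaks were found along most of chromosome 11. Of its 11 windows of 10 Mb, 10 held peaks wider than 250 bp, between 4 and 13 each. The exception was the window from 10 to 20 Mb, which also had the fewest peaks, with 0 of 29 wider than 250 bp and 27.6% wider than 167 bp. The share wider than 167 bp was highest from 50 to 60 Mb, at 64.3% of 56 peaks, and lowest from 20 to 30 Mb, at 26.1% of 46. In the 5 parts of the span it was 40.2%, 36.8%, 49.2%, 52.9% and 50.5%. The exact intervals overlapped least between the second part (27.6 to 46.7) and the fourth (44.2 to 61.6). Overlap of intervals does not show that shares are equal. The comparison chromosomes pooled stayed between 25.7% and 28.6% in the same parts.

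The 4 peaks at the start of chromosome 11, set apart by position with their widths known, were wider than all its others. In order they lay at 3,031,795 to 3,032,436 (642 bp), 3,034,263 to 3,034,833 (571 bp), 3,050,628 to 3,051,603 (976 bp) and 3,099,454 to 3,100,068 (615 bp). Mouse chromosomes have their centromere at one end, and numbering starts there, so these positions are at the centromeric end of the assembled sequence. The distances between their centres were 2.43, 16.6 and 48.6 kb. They were ranks 1, 2, 3 and 5 by width in the whole list, and rank 4 was a peak of 597 bp on chromosome 14. Wider than 350 bp were 17 peaks on chromosome 14 and 11 on chromosome 11. Together they covered 2804 bp, or 2.45% of all bases in peaks of the chromosome.

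The last peak inside the limit of 3,110,000 is the one of 615 bp, and the first outside it lies at 3,170,786 to 3,170,952 and is 167 bp wide, with 70.7 kb free of peaks between them. The next 4 peaks were 262, 167, 237 and 213 bp wide. Within the subgroup even the narrowest peak was 1.43 times as wide as the widest of the other 585, which had 399 bp. Widths were known when the subgroup was set, so this lead is a description only. The widest peak of the comparison chromosomes had 414 bp and lay on chromosome 17. The first 4 peaks of each of those chromosomes, 52 in all, were 81 to 252 bp wide and took up between 196 kb on chromosome 17 and 4778 kb on chromosome 9, against 68.3 kb on chromosome 11. Below position 3,110,000 the 13 chromosomes had 3 peaks in all, 2 on chromosome 17 and 1 on chromosome 9. A further 7 of the 14 listed peaks below this position were on chromosome Y and were 57 to 350 bp wide. At its other end chromosome 11 ended in 4 peaks of 153 to 237 bp within 464 kb.

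**Figure D4:**
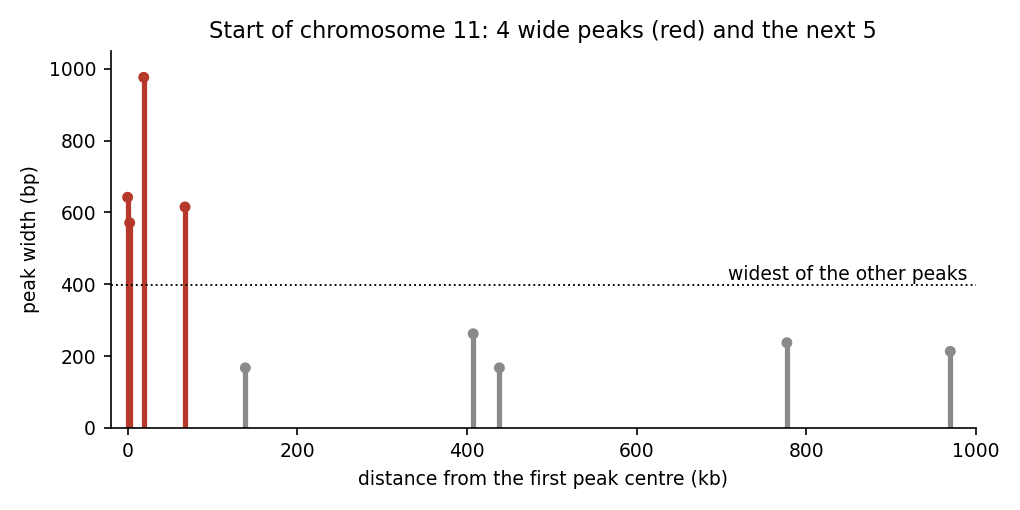
Width in bp of the first 9 peaks of chromosome 11 against their distance from the first peak centre in kb, with the 4 peaks of the start subgroup in red. The dotted line marks the widest of the other 585 peaks, 399 bp, and all red peaks lie above it while the next 5 lie between 167 and 262 bp.

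The subgroup did not carry the pattern of the rest of the chromosome. Without it the density was 4.94 peaks per Mb, 46.0% of peaks were wider than 167 bp and 14.5% wider than 250 bp. The mean width was 191 ± 57.4 bp (SD over 585 peaks). Outside the subgroup the widest peaks were at 97,357,816 to 97,358,214 (399 bp), at 46,065,680 to 46,066,074 and at 75,513,304 to 75,513,698 (both 395 bp). Next were 88,294,552 to 88,294,942 (391 bp), 75,321,739 to 75,322,123 (385 bp), and 23,656,245 to 23,656,603 and 83,993,380 to 83,993,738 (both 359 bp). Those 7 peaks lay in 5 of the 10 Mb windows, and the pair near 75 Mb lay 192 kb apart by their centres, so they formed no group like that at the start.

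Neighbouring peak centres on chromosome 11 were a median of 126 kb apart, with quartiles of 50.02 and 277 kb. On the comparison chromosomes the medians ran from 170 kb on chromosome 19 to 372 kb on chromosome 13. Shorter distances follow from the higher density, so each distance was also divided by the mean distance of its chromosome. On this relative scale the median was 0.624 on chromosome 11 and 0.393 to 0.599 on the 13 others, and the coefficient of variation was 1.23 against 1.30 to 1.81. Distances below 0.1 of the mean made up 62 of 588, or 10.5% (8.18 to 13.3), on chromosome 11 and 13.2% to 21.7% on the others, with 16.3% (14.9 to 17.7) for the 13 pooled. Distances over 3 times the mean made up 4.59% (3.05 to 6.61) against 8.0% (7.02 to 9.06) for the 13 pooled. Relative to their own density, the peaks of chromosome 11 thus had fewer very short distances than each of these 13. Very long distances were fewer than on the 13 pooled, but not clearly fewer than on chromosome 13. There the 0.95 quantile of relative distance was 2.87, against 2.85 on chromosome 11. Chromosome 1, which is also dense over its length, had similar values, with a relative median of 0.611, a coefficient of variation of 1.17 and 9.90% of distances below 0.1 of the mean.

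The order of the chromosomes in this evenness was not the same without the peaks of 167 bp, an alternative that also leaves fewer peaks on every chromosome. The share of distances below 0.1 of the mean was then 11.8% on chromosome 11 and 8.08% to 20.6% on the others, of which 2 were lower, and the coefficient of variation was 1.18 with 2 of 13 lower. Over 5 parts chromosome 11 still had the lowest ratio, but only just, at 1.60 against 1.63 to 4.22. That margin is small beside the counting interval of its ratio with all peaks, 1.00 to 1.69.

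**Figure D5:**
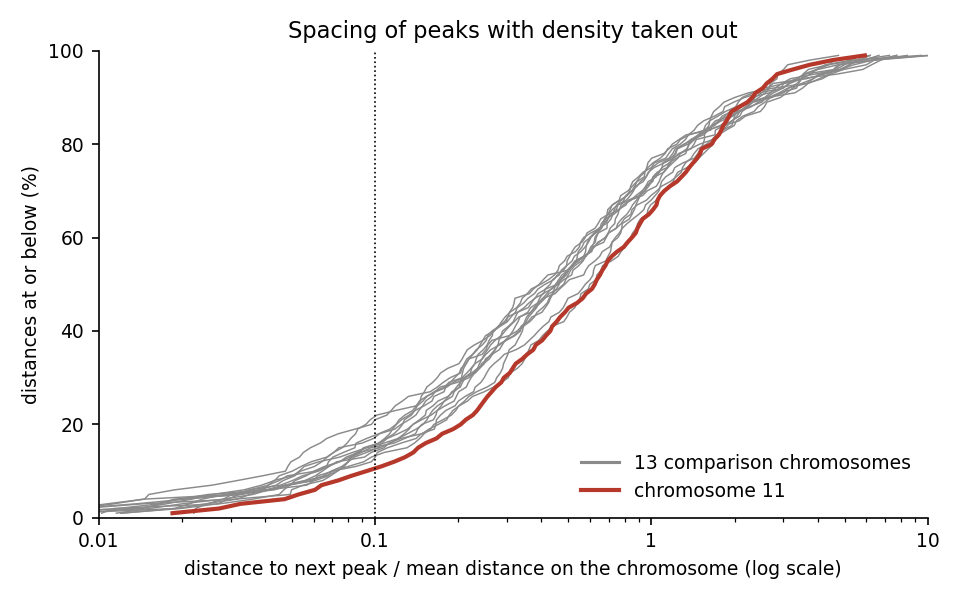
Cumulative share of distances between neighbouring peak centres, in percent, against the distance divided by the mean distance of the same chromosome on a log axis, with chromosome 11 in red and each of the 13 comparison chromosomes in grey. At 0.1 of the mean (dotted line) chromosome 11 is at 10.5% and the others are between 13.2% and 21.7%.

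Long stretches without a peak were rarer on chromosome 11 than on the 13 comparison chromosomes. In 10 places neighbouring centres were over 1 Mb apart, and these took up 12.1% of the span, against 48.3% to 65.0% on the comparison chromosomes. The longest peak-free stretch ran from 13,484,352 to 16,209,366, with 2.73 Mb between the centres on either side. It was followed by 110,367,464 to 112,235,844 (1.87 Mb), 38,960,311 to 40,567,352 (1.61 Mb), 69,043,852 to 70,283,231 (1.24 Mb) and 113,335,306 to 114,556,114 (1.22 Mb). Each comparison chromosome had a longer one, from 3.26 Mb on chromosome 15 to 8.18 Mb on chromosome 2. Chromosome 1 was like chromosome 11 here too, with 14.9% of its span in distances over 1 Mb, a longest one of 2.15 Mb and a peak in 96.9% of its 1 Mb bins. The peaks on either side of the 5 stretches of chromosome 11 were 103 to 214 bp wide. None was wider than 250 bp, where the share was 15.1% on chromosome 11 and 5.85% over all listed peaks. So few peaks cannot show whether wide ones are rarer there.

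A neighbour within 10 kb was present for 54 of the 589 peaks, or 9.17% (6.96 to 11.8), where the share over all listed peaks was 7.59%. The interval includes that share. On the 13 comparison chromosomes the share ran from 0% on chromosome 16 to 13.6% on chromosome 17, and 12 of the 13 were lower. A limit in kb finds more neighbours where peaks are denser, so this order follows in part from density. Of the other dense chromosomes, 14 was higher at 13.3% and 1 was lower at 7.26%. All 54 formed pairs, 27 in number, and no 3 peaks were linked by steps of 10 kb or less. The 13 others had 84 pairs and 6 groups of 3, the latter on 4 chromosomes. The closest pair, at 16,733,545 to 16,733,855, consisted of peaks of 82 and 150 bp with 79 bp between them. The next lay at 6,396,184 to 6,396,953, with peaks of 235 and 238 bp and 297 bp between them. The other pairs had over 1 kb between their centres, beginning with 86,048,755 to 86,050,736 (161 and 167 bp), the first 2 peaks of the start subgroup and 71,966,382 to 71,969,316 (270 and 249 bp).

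The wide peaks of chromosome 11 were not confined to close neighbours. Ordered by the distance to the nearest peak and cut into 4 groups of 146 to 148, peaks were wider than 167 bp in 51.4% of cases within 25.8 kb and in 47.3%, 44.2% and 42.6% in the groups farther away. The intervals of the first and last group, 43.0 to 59.7 and 34.5 to 51.0, overlapped, which does not show that the shares are equal. Peaks wider than 250 bp made up 15.8%, 15.5%, 12.9% and 16.2% of the same groups. The most isolated group, whose nearest neighbour was 126 to 1060 kb away, thus held such peaks at about the share of the whole chromosome.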

How the data were processed

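The authors deposited 1 list of peak positions for the Pwp1 ChIP library, with 3 columns (chromosome, start, end) and no header, score or p-value. Per the submitters' processing notes, the tools were HOMER 4.3, Bowtie 0.12.7 and CASAVA 1.4, and the build was mm9. What each did, with which settings and peak threshold, and whether the input entered peak calling is not stated there, and the peak list gives no depth. These could change how many peaks are listed and how wide they are. Starts were read as counted from 0 and are printed counted from 1.

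Widths, densities and distances between centres were computed in Python 3.11.15 (scipy 1.17.1, pandas 2.3.3, numpy 2.4.6). Plots were made in matplotlib 3.10.9. The functions were tested on simulated peak lists. Lengths of chromosomes were not used, so density is over the span from first to last peak and can be overstated. Windows of 10 Mb and bins of 1 Mb count from position 0 and lie wholly inside the span. Intervals are exact, at 95% (Poisson, Clopper-Pearson, and conditional binomial for ratios), and cover counting error only. No test was run.

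The chromosome, the subgroup and the measures were chosen with earlier results of these data known. Regions named are the start subgroup and the next peaks, the 10 widest peaks with their ties, the 5 closest pairs, the 5 longest distances and the fullest and empty 1 Mb bins. The limits of 110 and 130 bp, the limit of 3 mean distances, the classes of bin fullness and the groups by nearest distance were added after the data were seen. Alternatives left out the subgroup, merged peaks within 1 kb, left out the commonest width or changed a limit.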

Additional observations from a re-analysis of the deposited data

How the results depend on the processing

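Of 40 recomputed values, 31 stayed inside the counting interval of the value reported and 9 did not. Without peaks of 167 bp, density was 3.38 peaks per Mb and the median distance 192 kb, which follows from leaving out 188 peaks. The other values moved with the limit itself. The share of wider peaks was 78.3% when peaks of exactly 167 bp were counted in, and the share of the widest was 31.7% above 200 bp and 7.30% above 300 bp. A neighbour was present for 3.74% of peaks within 5 kb and for 20.4% within 20 kb. With a limit of 110 bp in place of 130 bp, an alternative added after seeing the data, the share of narrow peaks was 5.09% and their density ratio 1.43. Leaving out the start subgroup or merging peaks within 1 kb kept every recomputed value inside its interval. Both change few peaks of chromosome 11, as the subgroup is 4 peaks and only 2 distances were within 1 kb. Little movement was therefore bound to follow. The density ratio of peaks over 250 bp, 16.8, was 14.6 with merged peaks and 16.1 without the subgroup. In each of these settings chromosome 11 had the highest density and the highest shares of peaks wider than 167 and 250 bp beside the 13 comparison chromosomes. This order cannot show robustness, since chromosome 11 was chosen by its density with its widths known. Chromosomes 1 and 14 were not ranked in these settings. With all peaks, 17.9% of those on chromosome 14 were wider than 250 bp, above the 15.1% of chromosome 11. A stricter threshold was not run, because the list has no value per peak. No paired analysis was possible because 1 peak list was analysed. Limits set by sequencing depth could not be examined from positions alone.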
